A study of Mus musculus with 12 samples.

Results

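Respiratory complex III, complex IV and ATP synthase are the later stages of mitochondrial energy conversion, and 42 genes of the RNA table carry nuclear symbols of their subunits. They are the genes named Uqcr, Cyc1, Cox4 to Cox8, Atp5 or Ndufa4 whose mean over the 6 RNA libraries was at least 10 normalized counts, a rule that reads symbols and the mean alone. The table holds 25700 genes, of which 18074 reached that mean and were tested. The 42 are 9 genes of complex III, 15 of complex IV and 18 of ATP synthase. They include 2 genes whose symbols mark them as pseudogenes, Cox5b-ps and Atp5pb-ps. The least abundant gene inside the limit was Cox7b2, with a mean of 13.6 normalized counts. Cox7c-ps1, at 5.85, and Cox7a1, at 3.8, matched the names and stood below it.

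The study set Th2 cells of the mouse labelled cKO against Th2 cells labelled WT, and its title names the transcription factor NRF2. RNA-seq was measured in 3 cKO-labelled and 3 WT libraries, and ATAC-seq, which reads open chromatin by transposase insertion, in 3 and 3 others. The labels give the cell type and the genotype alone. Th2 cells are known as drivers of allergic inflammation. The labels name neither the deleted gene nor the Cre driver, strain, age, treatment or tissue of the cells, and they do not say whether the libraries of a genotype came from separate animals. The p-values below therefore measure the spread between these libraries, which may be technical. Nfe2l2, the gene that encodes NRF2, had 452.8, 326.4 and 391.5 normalized counts in the cKO-labelled libraries and 169.9, 155.3 and 147.4 in the WT libraries. A gene total does not show whether an exon was lost, so this value does not check the genotype. The Y-linked gene Ddx3y was at 0 in all 3 cKO-labelled libraries and at 140.5, 123.4 and 131.7 in the WT libraries. Xist, a transcript known from female cells, had 6284.2, 4331.3 and 7069.1 in the cKO-labelled and 4046.9, 3879.3 and 3173.6 in the WT libraries. The WT libraries thus held counts of both genes, and the share of each sex in them was not tested. The sex make-up of the libraries cannot be told apart from the genotype.

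Complex III passes electrons from ubiquinol to cytochrome c, and complex IV passes them on to oxygen. Both move protons across the inner mitochondrial membrane, and ATP synthase uses the returning protons to make ATP: its F1 head carries the catalytic sites, its c ring turns in the membrane, and a peripheral stalk holds the head still. Each of these complexes combines subunits encoded in the nucleus with a few encoded in mitochondrial DNA, among them cytochrome b, the catalytic centre of complex IV and the proton channel of ATP synthase. Activated T cells use this respiration beside glycolysis.

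Total normalized counts ran between 6431081 and 7372007 per library. Their raw depth is not known. T cell markers summed to between 16574.4 and 19714.8 normalized counts in the cKO-labelled libraries and to between 17869.9 and 19544.5 in the WT libraries, with all 9 markers detected. Of 7 Th2 markers 5 reached a mean of 10, while the cytokine genes Il4 and Il5 did not, and the 7 together summed to 1712.9 to 2322.1 in cKO-labelled and 2024.7 to 2485.0 in WT libraries. Markers of B cells summed to 238.1 to 340.8 in cKO-labelled and 182.5 to 444.8 in WT libraries, and those of epithelial and stromal cells to 250.2 to 377.4 in cKO-labelled and 302.2 to 405.5 in WT libraries. Markers of CD8 T and NK cells summed to 150.2 to 160.1 in cKO-labelled and 144.2 to 206.9 in WT libraries, and those of myeloid cells to 53.1 to 88.4 in cKO-labelled and 79.0 to 115.3 in WT libraries. All 4 neutrophil markers were at 0, and erythroid markers summed to at most 14.3 in cKO-labelled and 4.6 in WT libraries. For every list with counts the ranges of the genotypes overlapped.

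Promoters of subunit genes are shown because they lie under the open chromatin described further on. For 32 of the 42 genes the RefSeq promoter table of build GRCm38.p6 held an entry. Each sequence is the 250 bases before the annotated start of the gene, written 5′ to 3′ on the strand of the gene. Capitals mark matches, on either strand, to letters known to be bound by regulators of respiratory genes. These are GCGC, any base and TGCGC for nuclear respiratory factor NRF1, CCGGAAG for GABPA and other ETS factors, AANATGGC for YY1 and TGACNNNGC for the antioxidant response element that NRF2 binds. GABPA is part of a factor that has also been called nuclear respiratory factor 2, which is not the NRF2 of the study's title. The first 4 sequences belong to genes that fell in the authors' deposited table, at least 1 from each complex, and all 4 hold ETS letters. Uqcr10, Cox5a, Cox7a2, Cox7b, Cox7c, Atp5pb, Atp5j2 and Atp5md also fell there, and their windows held none of the 4 motifs. The fifth sequence holds the only antioxidant response element found, and the last belongs to a gene whose level hardly differed.
Atp5e, chr2:174464102-174464351, minus strand: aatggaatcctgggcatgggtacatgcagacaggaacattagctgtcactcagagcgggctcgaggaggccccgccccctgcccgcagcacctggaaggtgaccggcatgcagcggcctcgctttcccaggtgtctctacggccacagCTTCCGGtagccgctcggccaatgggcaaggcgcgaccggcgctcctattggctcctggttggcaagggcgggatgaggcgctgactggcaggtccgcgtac
Cox6b1, chr7:30626115-30626364, minus strand: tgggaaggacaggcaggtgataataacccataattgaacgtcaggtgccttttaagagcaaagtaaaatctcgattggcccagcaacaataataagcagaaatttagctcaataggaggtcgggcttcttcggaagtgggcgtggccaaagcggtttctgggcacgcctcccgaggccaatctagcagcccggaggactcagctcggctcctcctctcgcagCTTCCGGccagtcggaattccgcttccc
Cox6a1, chr5:115348959-115349208, minus strand: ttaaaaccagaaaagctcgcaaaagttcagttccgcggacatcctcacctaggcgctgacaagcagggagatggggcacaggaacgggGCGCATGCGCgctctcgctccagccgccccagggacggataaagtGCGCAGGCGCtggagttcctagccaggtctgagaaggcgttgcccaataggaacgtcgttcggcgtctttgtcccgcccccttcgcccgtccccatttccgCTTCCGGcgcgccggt
Uqcr11, chr10:80406822-80407071, minus strand: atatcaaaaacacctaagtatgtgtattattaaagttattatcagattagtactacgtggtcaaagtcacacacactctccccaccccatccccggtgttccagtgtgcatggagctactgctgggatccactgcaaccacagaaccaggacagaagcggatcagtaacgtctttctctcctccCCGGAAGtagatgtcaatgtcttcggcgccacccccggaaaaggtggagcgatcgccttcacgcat
Atp5o, chr16:91931631-91931880, minus strand: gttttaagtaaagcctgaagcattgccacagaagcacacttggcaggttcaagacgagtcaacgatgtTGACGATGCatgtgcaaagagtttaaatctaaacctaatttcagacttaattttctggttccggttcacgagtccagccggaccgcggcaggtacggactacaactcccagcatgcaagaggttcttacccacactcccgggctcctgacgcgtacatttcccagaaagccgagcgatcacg
Uqcrc1, chr9:108936398-108936647, plus strand: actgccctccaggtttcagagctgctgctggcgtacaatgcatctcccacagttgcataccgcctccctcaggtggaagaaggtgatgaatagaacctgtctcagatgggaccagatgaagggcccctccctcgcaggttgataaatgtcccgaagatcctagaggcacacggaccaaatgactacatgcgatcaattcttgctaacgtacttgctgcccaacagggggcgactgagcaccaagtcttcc
The ETS letters began 102 bases before the start in Atp5e, 28 in Cox6b1, 16 in Cox6a1 and 66 in Uqcr11, and Cox6a1 also held the NRF1 letters at 162 and 117 bases before it. The antioxidant response element of Atp5o began 182 bases before the start, and the window of Uqcrc1 held none of the 4 motifs.

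The ETS letters stood in 8 of the 32 promoters (25.0%), against 7.8% of 27025 genes with a promoter of the same length. Those 27025 were not limited to genes that reached the minimum mean in RNA, as the 32 were. Besides the 4 promoters shown, these were Uqcrh, Atp5h, Atp5j and Atp5l. NRF1 letters stood in 5 (15.6% against 4.2% of all genes), namely Cox6a1, Atp5c1, Atp5g2, Atp5h and Atp5k. YY1 letters stood in 1 (3.1% against 4.5%) and the antioxidant response element in 1 (3.1% against 11.5%). No match overlapped a match to another motif. The median log2 change in RNA, cKO-labelled over WT, was -0.72 over the 8 genes with ETS letters and -0.39 over the 24 without, and -0.64 over the 5 with NRF1 letters and -0.50 over the 27 without. Single genes with ETS letters ran from -1.02 in Atp5e to -0.14 in Atp5j, and those with NRF1 letters from -0.86 in Atp5h to 0.28 in Atp5g2. Cox6a1 and Atp5h held both, so the 2 contrasts share genes. These are descriptions of letters in a window and were not tested.

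Transcripts of these subunits were lower in the cKO-labelled libraries for most genes. Of the 42 genes 37 had a negative log2 change (88.1%, against 45% of all genes tested). In 27 (64.3%) every cKO-labelled library lay below every WT library, against 9.76% of all genes tested, and in no gene did every cKO-labelled library lie above, against 7.4% (17.2% in either direction). The median log2 change was -0.43, where that of all genes was 0.06, and single genes ran from -1.02 to 0.61. Changes are on the scale of log2 of the normalized count plus 1.

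After Benjamini-Hochberg adjustment over all 18074 genes, limma called 0 of the 42 (0.172% of all genes were called lower and 0.0332% higher). The smallest adjusted p, that of Atp5e, was 0.065. At an unadjusted p under 0.05 limma counted 25 lower and 0 higher, against 6.05% of all genes in each direction. The authors' deposited table gives an adjusted p for 39 of the 42, and 18 of them were lower and 0 higher at its 0.05, against 3.9% lower and 1.78% higher, 5.68% in all, among its 9263 genes. Without replicate 2 of the cKO-labelled libraries limma called 7 of the 42 lower, and without replicate 1 of the WT libraries it called 4, while leaving out any of the other 4 libraries left 0. Among the cKO-labelled libraries replicate 2 was the highest for 25 of the 42 genes, and among the WT libraries replicate 1 was the lowest for 24. In bulk RNA, fewer cells of a kind and less RNA per cell cannot be told apart.

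**Figure D1:**
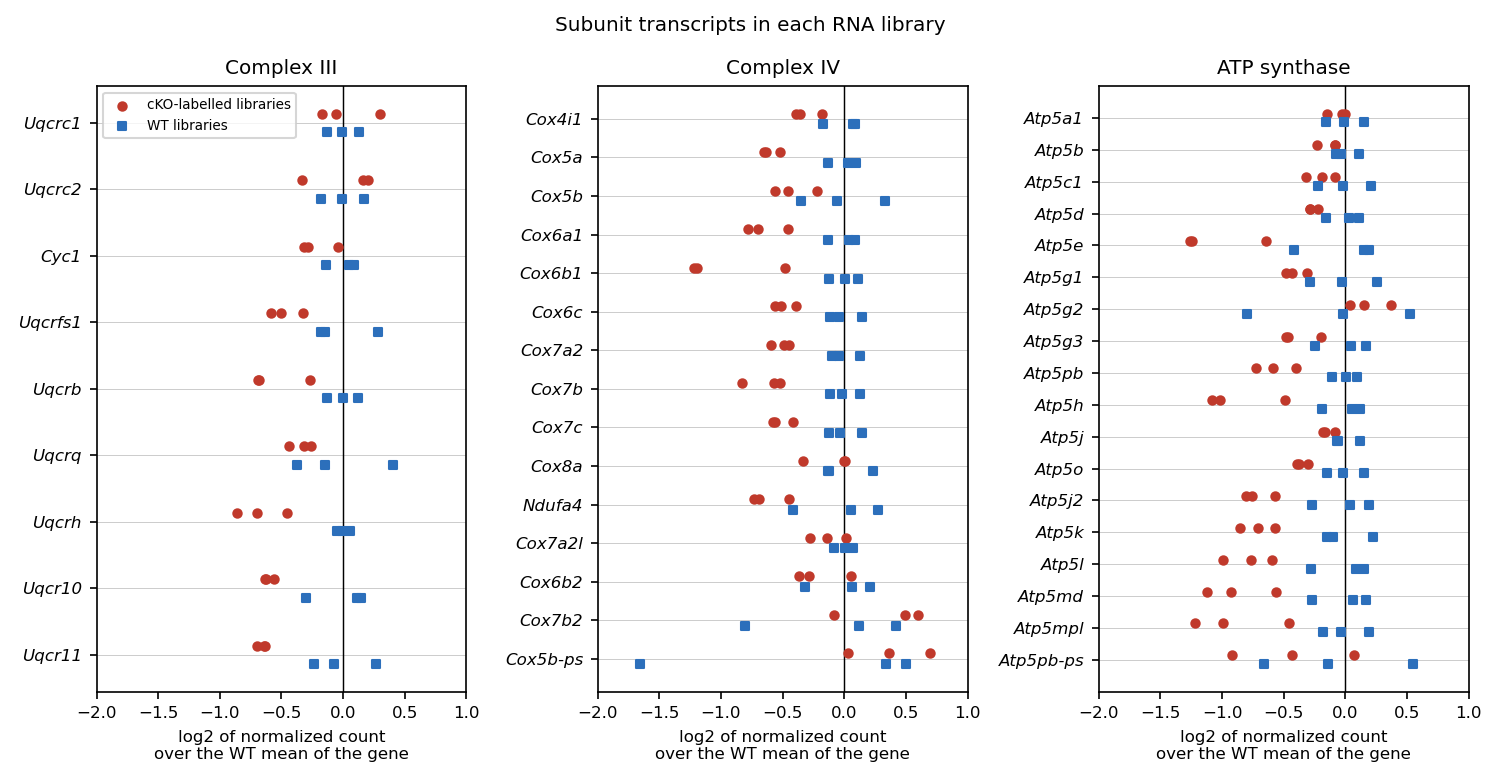
Level of each of the 42 subunit genes in every RNA library, as log2 of the normalized count over the WT mean of the gene, with red circles for cKO-labelled and blue squares for WT libraries. In 27 genes all circles lie left of all squares, and the low-level genes Cox7b2, Cox5b-ps and Atp5pb-ps spread widest.

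Summed over the 42 genes, the 3 cKO-labelled libraries held 57185, 60115 and 58014 normalized counts, against 72641, 78355 and 77408 in the 3 WT libraries. The groups did not overlap, and the cKO-labelled mean was 76.8% of the WT mean. Taken by complex, the cKO-labelled mean was 78.5% of WT for complex III, 72.1% for complex IV and 78.5% for ATP synthase. In the sum for ATP synthase the groups lay further apart than the libraries within either, at 34101, 35176 and 34065 in cKO-labelled and 43155, 43849 and 44586 in WT libraries. Without the 3 most abundant genes of the 42 the sum in cKO-labelled libraries was 71.2% of WT.

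**Figure D2:**
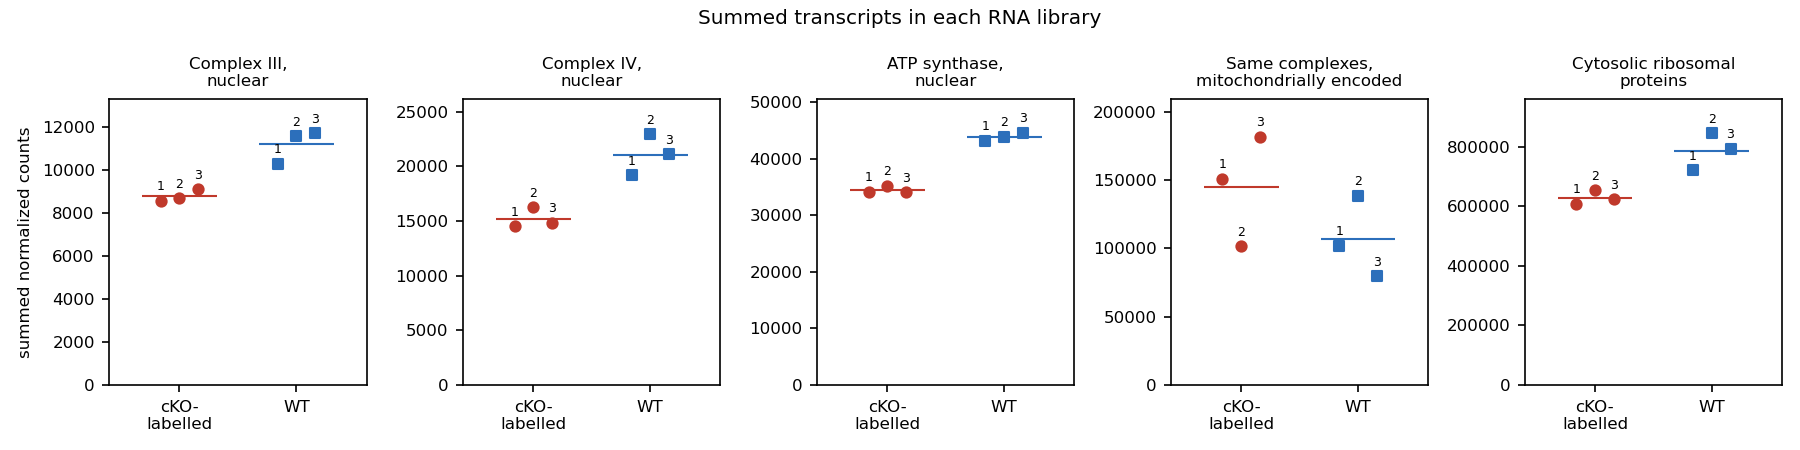
Summed normalized counts in each RNA library, with cKO-labelled left of WT, lines at the group means and replicate numbers beside the points. The nuclear subunits of each complex do not overlap between genotypes, the mitochondrially encoded subunits do, and the cytosolic ribosomal proteins do not.

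In complex III the changes ran from near 0 in the core proteins, which form the large matrix domain, to -0.67 in a small subunit. Uqcrc1, core protein 1, had 1366.0, 1478.3 and 1890.5 normalized counts in cKO-labelled libraries and 1531.3, 1401.6 and 1679.1 in WT libraries. Uqcrc2, core protein 2, had 1315.3, 910.6 and 1283.8 in cKO-labelled libraries and 1138.3, 1010.1 and 1287.1 in WT libraries. For both genes the groups overlapped. The log2 changes were 0.03 for Uqcrc1, with a 95% interval of -0.33 to 0.38, and 0.02 for Uqcrc2, with one of -0.38 to 0.41. The sign of both turned when single libraries were left out.

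Of the electron-carrying subunits, Uqcrfs1, the Rieske iron-sulfur protein, averaged 997.0 ± 92.6 normalized counts in cKO-labelled and 1381.3 ± 258.8 in WT libraries (SD, n = 3 each), without overlap. Its log2 change was -0.46 (limma adjusted p = 0.303; adjusted p = 0.125 in the authors' deposited table). Cyc1, cytochrome c1, averaged 905.4 ± 94.6 in cKO-labelled and 1045.8 ± 85.3 in WT libraries (SD, n = 3 each), with overlap and a log2 change of -0.21. Summed, the 4 core and electron-carrying genes in cKO-labelled libraries were at 91.0% of WT.

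The 5 small subunits of complex III all had negative changes, with a median of -0.59. Uqcrh, the acidic hinge protein that helps cytochrome c1 meet cytochrome c, had 1045.4, 1236.6 and 935.4 normalized counts in cKO-labelled libraries and 1642.6, 1768.9 and 1685.4 in WT libraries. Every cKO-labelled library was far below the lowest WT library. The log2 change was -0.67 (SE 0.156), with an adjusted p of 0.101 by limma and of 0.0059 in the authors' deposited table. Uqcr10, a small membrane-spanning subunit, had 1053.1, 1100.7 and 1044.5 in cKO-labelled libraries and 1316.5, 1795.9 and 1756.2 in WT libraries. Uqcr11, the smallest subunit, had 487.2, 466.6 and 486.0 in cKO-labelled libraries and 717.8, 908.6 and 642.5 in WT libraries. Both genes were tightly grouped in the cKO-labelled libraries and did not overlap with WT. In the authors' deposited table these 3 were the complex III genes that fell (33.3%, against 3.9% of all genes there). The adjusted p-values there were 0.0206 for Uqcr10 and 0.0251 for Uqcr11, and limma gave 0.153 and 0.173 for the same genes.

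The remaining small subunits differed less firmly. Uqcrb, also called ubiquinone-binding protein, averaged 481.8 ± 83.2 in cKO-labelled and 698.2 ± 60.1 in WT libraries (SD, n = 3 each), without overlap. Uqcrq, which sits beside cytochrome b, averaged 1026.1 ± 63.4 in cKO-labelled and 1296.7 ± 373.6 in WT libraries (SD, n = 3 each), with overlap. The ratio of the 5 small to the 4 core and electron-carrying genes was 0.92, 1 and 0.763 in cKO-labelled libraries and 1.07, 1.51 and 1.03 in WT libraries. All cKO-labelled ratios lay below all WT ratios.

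In complex IV the 11 nuclear subunits that surround the catalytic centre all had negative changes, against 45% of all genes tested, with a median of -0.51. Of them 7 (63.6%) fell in the authors' deposited table, against 3.9% of all genes there. Cox6b1, which faces the space where cytochrome c docks, had 906.6, 1510.9 and 923.0 normalized counts in cKO-labelled libraries and 1935.7, 2116.5 and 2270.5 in WT libraries. Replicate 2 stood above the other cKO-labelled libraries and still below every WT library. The cKO-labelled mean was 52.8% of the WT mean, a log2 change of -0.96 (SE 0.196), with an adjusted p of 0.0681 by limma and of 0.00187 in the authors' deposited table. Cox6a1, the broadly expressed form of subunit VIa, had 1672.7, 2094.5 and 1773.1 in cKO-labelled libraries and 2619.8, 2964.1 and 3050.3 in WT libraries. Cox7b, encoded on the X chromosome and needed for assembly of the complex, had 801.0, 994.4 and 957.7 in cKO-labelled libraries and 1403.8, 1554.0 and 1313.6 in WT libraries. Neither gene overlapped between groups, and the log2 change was -0.64 for each, with adjusted p-values in the authors' deposited table of 0.00534 for Cox6a1 and 0.0111 for Cox7b (limma gave 0.0932 and 0.12).

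Cox5a, Cox6c, Cox7a2 and Cox7c were the other complex IV genes that fell in the authors' deposited table, with log2 changes here between -0.60 for Cox5a and -0.49 for Cox6c. Cox7a2, the broadly expressed form of subunit VIIa, had 737.0, 815.1 and 790.0 in cKO-labelled libraries and 1075.9, 1215.8 and 1039.1 in WT libraries, without overlap. Cox5a averaged 842.6 ± 42.1 in cKO-labelled and 1276.8 ± 103.7 in WT libraries (SD, n = 3 each). Cox7c averaged 1169.9 ± 73.7 in cKO-labelled and 1672.6 ± 164.2 in WT libraries, and Cox6c 1216.9 ± 76.1 in cKO-labelled and 1706.5 ± 162.9 in WT libraries (SD, n = 3 each).

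Ndufa4, once assigned to complex I and now counted as a complex IV subunit, had 788.8, 961.9 and 813.3 normalized counts in cKO-labelled libraries and 980.2, 1588.0 and 1363.0 in WT libraries. The groups lay close without overlapping, and the log2 change of -0.59 had an adjusted p of 0.233 by limma and of 0.0528 in the authors' deposited table. Cox4i1, the broadly expressed form of the regulatory subunit IV, had 2457.6, 2776.9 and 2401.2 in cKO-labelled libraries and 2801.2, 3338.5 and 3307.1 in WT libraries, a log2 change of -0.31 without overlap. Cox5b, which binds zinc, had a log2 change of -0.39, and of -0.21 without replicate 2 of the WT libraries, with overlapping groups. Cox8a, the broadly expressed form of subunit VIII, had 1832.0, 1443.6 and 1819.9 in cKO-labelled libraries and 1670.1, 2142.4 and 1661.1 in WT libraries. Its groups overlapped, with a log2 change of -0.10 and a 95% interval of -0.46 to 0.25. The tissue-specific partners Cox4i2, Cox6a2, Cox8b and Cox8c were looked for and had no row under these symbols in the RNA table.

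Limma called none of Cox7a2l, Cox6b2, Cox7b2 and Cox5b-ps. The authors' deposited table called neither Cox7a2l nor Cox6b2, and it gave no adjusted p for Cox7b2 and Cox5b-ps. Cox7a2l, a factor that joins complex III to complex IV in supercomplexes, had 1050.3, 1168.4 and 952.2 normalized counts in cKO-labelled libraries and 1162.0, 1087.4 and 1215.6 in WT libraries. The groups overlapped, and the log2 change was -0.13 with a 95% interval of -0.47 to 0.20. Cox6b2, known as the testis form of subunit VIb, had 169.8, 160.4 and 215.2 in cKO-labelled libraries and 216.6, 238.6 and 165.9 in WT libraries, again overlapping. Cox7b2, a testis-expressed relative of Cox7b, had 11.2, 16.7 and 18.0 in cKO-labelled libraries and 6.8, 12.9 and 15.9 in WT libraries. Its log2 change of 0.38 had a 95% interval of -1.05 to 1.82. Cox7a1, the form known from muscle, stood below the minimum with at most 1.81 normalized counts in cKO-labelled and 12.17 in WT libraries.

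In ATP synthase the log2 changes ran from -1.02 to 0.28. In its F1 head, Atp5b, the catalytic beta subunit, had 10870.8, 9798.0 and 10870.1 normalized counts in cKO-labelled libraries and 12437.9, 11230.1 and 10906.8 in WT libraries. The groups lay close without overlapping, and the cKO-labelled mean was 91.2% of WT (log2 change -0.13, limma adjusted p = 0.695; the change was 0.14 after quantile normalization). Atp5a1, the alpha subunit, averaged 6364.2 ± 331.0 in cKO-labelled and 6632.2 ± 711.4 in WT libraries (SD, n = 3 each), with overlap. Its log2 change was -0.06, and 0.11 after quantile normalization. Atp5c1, the gamma subunit of the turning shaft, had a log2 change of -0.19, which ran from -0.29 without replicate 3 to -0.08 without replicate 1 of the WT libraries. That of Atp5d, the delta subunit, was -0.26, and the authors' deposited table called neither.

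Atp5e, the epsilon subunit at the foot of the shaft, had 1284.4, 1940.4 and 1268.8 normalized counts in cKO-labelled libraries and 2280.2, 3364.1 and 3466.1 in WT libraries. The highest cKO-labelled library lay below the lowest WT library. The cKO-labelled mean was 49.3% of WT, and the log2 change of -1.02 (SE 0.204) was the most negative of the 42. Its adjusted p was 0.065 by limma and 0.000595 in the authors' deposited table.

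The c ring is encoded by 3 paralogs that give the same mature protein. Atp5g1 had 769.7, 794.8 and 865.3 normalized counts in cKO-labelled libraries and 883.0, 1288.0 and 1055.4 in WT libraries, without overlap. Atp5g2 had 320.7, 345.9 and 404.3 in cKO-labelled libraries and 180.1, 308.0 and 449.0 in WT libraries. Atp5g3 had 1897.6, 2287.0 and 1873.7 in cKO-labelled libraries and 2705.8, 2217.5 and 2946.4 in WT libraries. The Atp5g2 and Atp5g3 groups overlapped. The log2 changes were -0.39 for Atp5g1, 0.28 for Atp5g2 (95% interval -0.35 to 0.91) and -0.37 for Atp5g3, and the authors' deposited table called none of them. Atp5g2 made up 10.7%, 10.1% and 12.9% of the counts of the 3 paralogs in cKO-labelled libraries and 4.8%, 8.1% and 10.1% in WT libraries, shares that touch at 10.1%. The change of Atp5g2 was -0.07 without replicate 1 of the WT libraries.

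All 4 subunits of the peripheral stalk were lower in cKO-labelled libraries without overlap, against 9.76% of all genes tested. Past the authors' threshold were 2 of them (50%), against 3.9% of all genes there. Atp5h, subunit d, had 708.3, 1024.7 and 677.9 normalized counts in cKO-labelled libraries and 1257.3, 1493.3 and 1555.6 in WT libraries. Its log2 change was -0.86 (SE 0.188), with an adjusted p of 0.0876 by limma and of 0.00349 in the authors' deposited table. Atp5pb, subunit b, averaged 2067.4 ± 239.8 in cKO-labelled and 3057.3 ± 211.7 in WT libraries (SD, n = 3 each), a log2 change of -0.57 with an adjusted p of 0.0152 in the authors' deposited table. Atp5o, the oligomycin sensitivity protein that caps the head, had a log2 change of -0.35 and Atp5j, coupling factor 6, one of -0.14, and neither was called there.

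The 5 small membrane subunits, several of which hold ATP synthase dimers together and shape the cristae, differed by similar amounts. All 5 fell in the authors' deposited table, against 3.9% of all genes there. All 5 were lower without overlap between groups, against 9.76% of all genes tested, with log2 changes between -0.88 and -0.70. Atp5md, known as DAPIT, had 1124.7, 1451.1 and 981.1 normalized counts in cKO-labelled libraries and 1777.6, 2409.4 and 2235.5 in WT libraries. The log2 change was -0.86 (SE 0.181), with an adjusted p of 0.0777 by limma and of 0.00187 in the authors' deposited table. Atp5l, subunit g, averaged 1131.1 ± 152.3 in cKO-labelled and 1934.6 ± 294.8 in WT libraries (SD, n = 3 each). Atp5k, subunit e, averaged 387.7 ± 37.7 in cKO-labelled and 633.5 ± 91.4 in WT libraries, and Atp5j2, subunit f, 1306.5 ± 116.9 in cKO-labelled and 2135.2 ± 342.3 in WT libraries (SD, n = 3 each). Atp5mpl, a small proteolipid, averaged 342.3 ± 96.2 in cKO-labelled and 617.4 ± 79.8 in WT libraries (SD, n = 3 each), which was 55.4% of WT.

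Summed, the 5 membrane subunits had 4187, 5045 and 3828 normalized counts in cKO-labelled libraries and 6260, 8347 and 7778 in WT libraries, while the alpha and beta subunits together had 17485, 15787 and 17359 in cKO-labelled and 19807, 17180 and 17484 in WT libraries. The ratio of the membrane to the alpha and beta counts was 0.239, 0.32 and 0.221 in cKO-labelled libraries and 0.316, 0.486 and 0.445 in WT libraries. Replicate 2 of the cKO-labelled libraries lay just above replicate 1 of the WT libraries, so these ratios overlapped. Atpif1, the inhibitor that binds the F1 head and is no subunit, had 859.1, 850.1 and 838.4 in cKO-labelled libraries and 1190.2, 1255.3 and 1035.0 in WT libraries. The groups did not overlap, and the log2 change of -0.45 had an adjusted p of 0.266 by limma and of 0.0889 in the authors' deposited table.

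**Figure D3:**
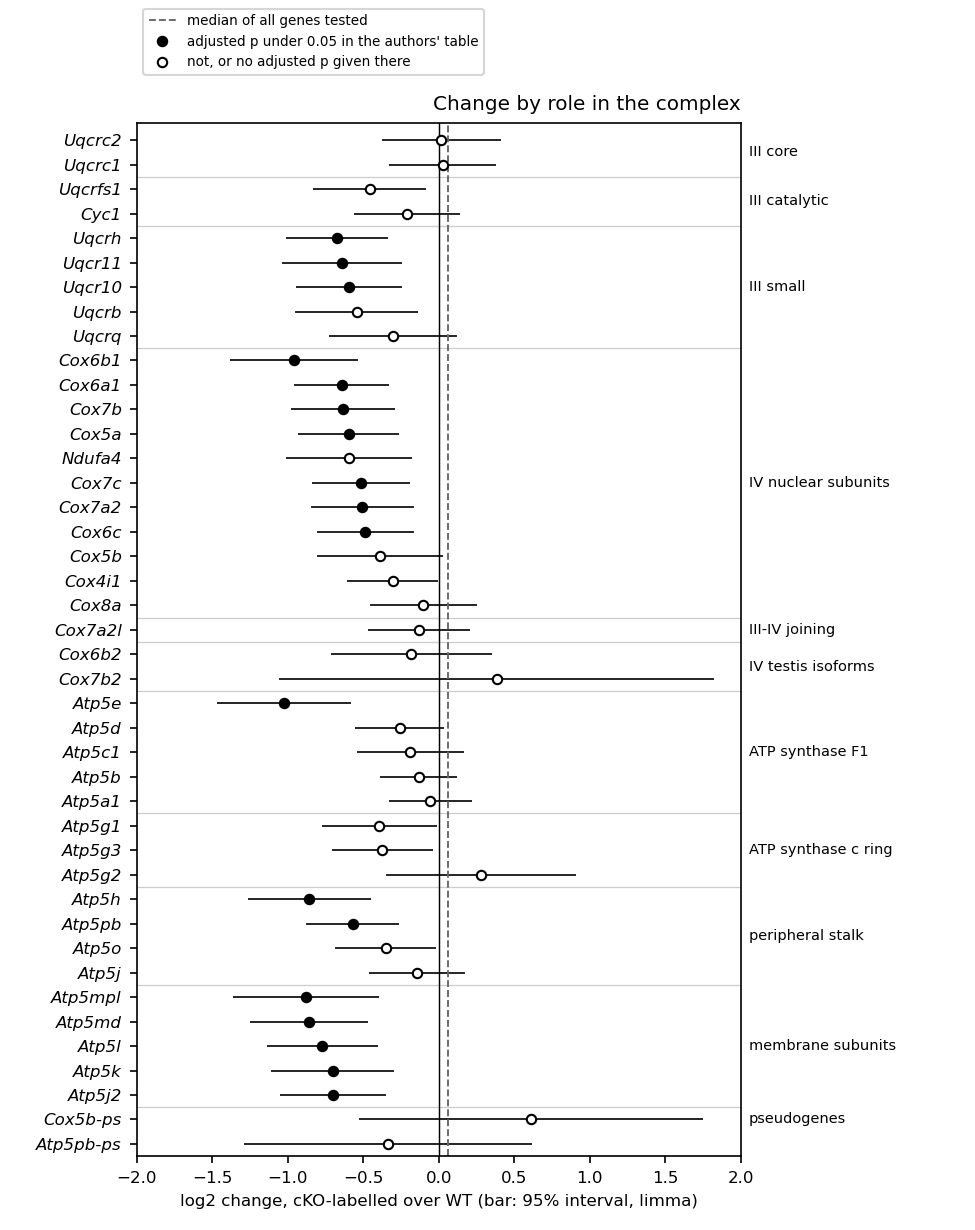
Log2 change, cKO-labelled over WT, of each of the 42 genes with its 95% interval from limma, grouped by role; filled points had an adjusted p under 0.05 in the authors' deposited table, and the dashed line is the median of all genes tested, 0.06. The 18 filled points all lie left of 0, while the core proteins of complex III and the alpha and beta subunits of ATP synthase are open points near it.

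The 2 pseudogenes had low counts that reads of their parent genes could reach, and no adjusted p in the authors' deposited table. Cox5b-ps had 78.3, 62.3 and 49.4 normalized counts in cKO-labelled libraries and 15.4, 68.7 and 61.3 in WT libraries, with overlap. These were 8.92%, 7.62% and 4.77% of the counts of Cox5b in cKO-labelled libraries and 1.63%, 4.52% and 5.3% in WT libraries. Its positive change rested on replicate 1 of the WT libraries, without which it was -0.06. Atp5pb-ps had 1.26% to 3.13% of the counts of Atp5pb in cKO-labelled and 1.22% to 2.47% in WT libraries.

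The partners of these subunits that mitochondrial DNA encodes were not lower as a group. Their median log2 change was 0.70, 0.58 after quantile normalization and 0.40 without replicate 3 of the WT libraries. Summed over the 6 mitochondrial genes of the same complexes, cKO-labelled libraries had 151076, 101537 and 181940 normalized counts and WT libraries 102027, 138499 and 79580. The groups overlapped, and the cKO-labelled mean was 135.8% of WT. mt-Co1, the catalytic subunit of complex IV, had 68852.9, 40290.8 and 79603.1 in cKO-labelled libraries and 42192.5, 39037.1 and 30818.5 in WT libraries, with a log2 change of 0.71. Replicate 2 was the lowest cKO-labelled library and lay within the WT range. In the authors' deposited table mt-Co1, mt-Cytb and mt-Atp8 rose, with adjusted p-values of 0.0239, 0.0354 and 0.0121, while limma gave 0.181, 0.24 and 0.197. mt-Atp8 shares part of its sequence with mt-Atp6, whose change was -0.41, so reads of this pair cannot be assigned with certainty. The log2 change was -0.05 for mt-Co2 and 0.70 for mt-Co3, and the groups of all 6 genes overlapped. In the authors' deposited table the change of mt-Co3 was 0.04 (adjusted p = 0.746 there).

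The ratio of the 42 nuclear genes to these 6 was 0.379, 0.592 and 0.319 in cKO-labelled libraries and 0.712, 0.566 and 0.973 in WT libraries. It overlapped because replicate 2 had the highest ratio of the cKO-labelled and the lowest of the WT libraries. All 15 mitochondrial genes with a row took 3.95%, 2.91% and 4.47% of all counts in cKO-labelled and 2.48%, 3.35% and 2.15% in WT libraries. Whether this share has a part in the nuclear values was not tested.

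Other groups of mitochondrial and of short abundant transcripts were read beside the 42. Among 36 nuclear genes of complex I, which feeds electrons in from NADH, 24 (66.7%) were lower without overlap, against 9.76% of all genes tested, and 9 (25%) fell in the authors' deposited table, against 3.9%. The median log2 change was -0.39. The sum over complex I in cKO-labelled libraries was 73.3% of WT. Ndufa2 of complex I was the only gene of these complexes that limma called, at -1.12 with an adjusted p of 0.0421. It had 686.6, 781.1 and 622.0 normalized counts in cKO-labelled libraries and 1230.7, 1667.0 and 1676.2 in WT libraries, far apart. In complex II, which has no mitochondrially encoded subunit, the median over 4 genes was -0.11, and -0.05 without replicate 1 of the WT libraries, and 1 gene, Sdhb with -0.51, fell in the authors' deposited table.

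The 79 cytosolic ribosomal protein genes, which are not mitochondrial, had a median of -0.32, and -0.14 after quantile normalization. Of these, 50 (63.3%) were lower without overlap, against 9.76% of all genes tested, and 20 of the 77 with an adjusted p there (26%) fell in the authors' deposited table, against 3.9%, and limma called 1. The ratio of the 42 genes to all 80 ribosomal protein genes with a row, 1 of them below the minimum mean, was 0.0941, 0.092 and 0.0932 in cKO-labelled libraries and 0.101, 0.0927 and 0.0977 in WT libraries, so that replicates 1 and 3 of the cKO-labelled libraries exceeded replicate 2 of the WT libraries. Genes of mitochondrial mass, such as import and matrix proteins, had a median of -0.19 over 16 genes, and of -0.11 without replicate 2 of the cKO-labelled or without replicate 1 of the WT libraries. Of the 16, 5 (31.2%) were lower without overlap, against 9.76% of all genes tested, and their sum in cKO-labelled libraries was 83.3% of WT. Hspe1, the mitochondrial co-chaperonin, with a log2 change of -0.60, was the 1 of them (6.25%) that fell in the authors' deposited table, against 3.9%. The ratio of the 42 to this list was 1.97, 2.23 and 1.9 in cKO-labelled libraries and 1.99, 2.37 and 2.27 in WT libraries, with overlap. The difference between the 42 and these lists was not tested.

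Assembly factors of the complexes had median log2 changes of -0.25 to 0.04. For complex IV, 26 factors had a median of -0.23, with 9 (34.6%) lower and 2 higher without overlap, against 9.76% and 7.4% of all genes tested. By the authors' deposited table, 4 of the 24 with an adjusted p (16.7%) fell, against 3.9% of all genes. Higd1a, which associates with complex IV under low oxygen, had 331.7, 543.3 and 309.5 normalized counts in cKO-labelled libraries and 718.7, 1019.0 and 1035.1 in WT libraries, a log2 change of -1.25 (adjusted p = 0.0597 by limma and 0.000213 in the authors' deposited table). Cox17, the copper chaperone, changed by -0.96 (adjusted p = 0.00282 in the authors' deposited table), Cox16 by -0.80 (0.00485) and Cox19 by -0.70 (0.0292). Cox15, which makes heme a, at 0.69, and Taco1, which activates translation of mt-Co1, at 0.67, were the 2 without overlap in the other direction, and neither passed limma. For complex III, 6 factors had a median of 0.04, which ran from -0.13 without replicate 3 to 0.13 without replicate 2 of the cKO-labelled libraries. For ATP synthase 6 factors had a median of -0.25, which ran from -0.40 without replicate 2 of the cKO-labelled libraries to -0.13 without replicate 3 of the WT libraries. Limma called none of the complex III or ATP synthase factors. The authors' deposited table called none either, and it gave an adjusted p for 5 of the 6 of each complex. At an unadjusted p under 0.05 limma counted 0 lower for complex III and 2 (33.3%) for ATP synthase, against 6.05% of all genes tested.

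Regulators of mitochondrial transcription and biogenesis had a median of 0.10 over 16 genes, which ran from 0.02 without replicate 3 to 0.15 without replicate 1 of the WT libraries. Limma called 0 of these genes, and the authors' deposited table called 0 of the 14 with an adjusted p there. At an unadjusted p under 0.05 limma counted 1 lower, a share of 6.25% that was close to the 6.05% of all genes tested. That gene was Polrmt, the mitochondrial RNA polymerase, with 234.1, 363.7 and 267.9 normalized counts in cKO-labelled libraries and 511.2, 381.0 and 480.7 in WT libraries (log2 change -0.68, limma adjusted p = 0.24). Tfam, which packages mitochondrial DNA, had a log2 change of -0.49 with overlap. The log2 change was -0.16 for Nrf1, 0.18 for Gabpa, 0.28 for Yy1 and 0.63 for Ppargc1a, each with overlapping groups. Cytochrome c itself, Cycs, which carries electrons from complex III to complex IV, had a log2 change of -0.30 with overlap.

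Open chromatin at the starts of these genes was compared in the ATAC-seq libraries, a readout that played no part in the choice of genes. The peak lists held 54133 to 75017 peaks per library from 13149952 to 18327127 tags, and 33531 merged regions had a peak in all 6. For 39 of the 42 genes 1 such region lay within 1 kb of a gene start, the exceptions being Cox7b2 and the 2 pseudogenes. Regions were 922 to 14661 bp long. With library medians subtracted, 28 of the 39 regions (71.8%) were higher in cKO-labelled libraries at an adjusted p under 0.05 by limma. The number lower was 0 at that threshold and also at an unadjusted p under 0.05. Among regions at the starts of all tested genes 65.7% were called higher and 0.761% lower, and among all regions 28% higher and 5.48% lower. The median log2 change in peak height was 0.57 at the 39, 0.55 at all gene starts and 0.16 over all regions. The share called and the median at the 39 regions were close to those at the starts of all tested genes.

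The count depended on the scaling. Without subtraction 1 region of the 39 was called higher (2.56%, against 2.94% at all gene starts), after quantile normalization 2 (5.13% against 5.9%, where 3.67% of all regions were called higher and 4.33% lower) and after cyclic loess 2 (5.13% against 6.34%). The medians over the 39 were then 0.26, 0.15 and 0.12 in that order of scalings. Replicate 2 of the WT libraries was the lowest of the 6 libraries at 34 of the 39 regions, and 25.22% of its tags lay in peaks, where the highest library had 38.28%. Without it 26 regions were called with medians subtracted.

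**Figure D4:**
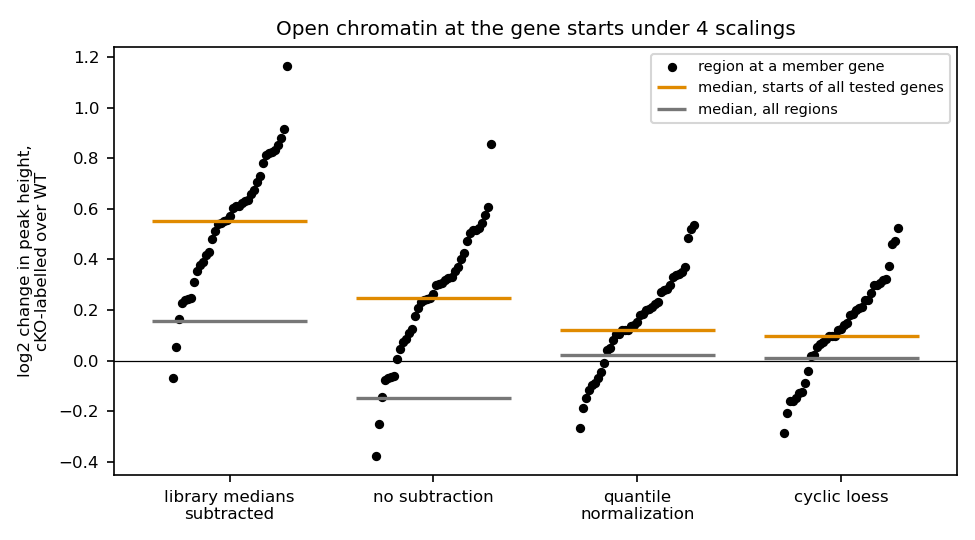
Log2 change in peak height, cKO-labelled over WT, at the 39 regions by the starts of subunit genes under 4 scalings, sorted within each; orange lines are medians at the starts of all tested genes and grey lines medians of all regions. The points centre on the orange line in each scaling, at 0.57 against 0.55 with library medians subtracted.

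The region at Atp5g1 (chr11:96074395-96076494, mm10) was the 1 called in all 4 scalings. Its tag counts, scaled to 10000000 tags per library, were 509.1, 515.0 and 547.9 in cKO-labelled libraries and 347.6, 205.2 and 337.2 in WT libraries. The groups were well apart. The log2 change was 1.16 (SE 0.108, limma adjusted p = 3.14e-05) with medians subtracted and 0.37 (adjusted p = 0.00859) after quantile normalization, while the RNA of Atp5g1 had a log2 change of -0.39. The region at Atp5g2 (chr15:102670138-102672315) had 282.5, 309.4 and 294.7 in cKO-labelled libraries and 229.1, 160.1 and 197.1 in WT libraries, a change of 0.91 with medians subtracted that missed the threshold after quantile normalization (adjusted p = 0.127). Those at Cox4i1 (chr8:120666740-120669035), Uqcrq (chr11:53430125-53431962) and Cox8a (chr19:7216972-7218461), next in p, had changes of 0.88, 0.83 and 0.82 with medians subtracted, without overlap between groups, and none was called after quantile normalization.

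Of the regions at the 18 genes that fell in the authors' deposited table, 12 were called higher with medians subtracted, where 65.7% of regions at the starts of all tested genes were, and 1 after quantile normalization, where 5.9% were. That 1 was the region of Atp5mpl (chr12:111966203-111967512). It had 98.6, 102.4 and 95.8 scaled tags in cKO-labelled libraries and 86.1, 50.2 and 71.0 in WT libraries, a change of 0.85 with medians subtracted and 0.52 after quantile normalization (adjusted p = 0.0291). The region at Atp5e had 76.2, 90.5 and 93.2 in cKO-labelled libraries and 88.3, 52.7 and 89.0 in WT libraries, with overlap and a change of 0.51 with medians subtracted and 0.18 after quantile normalization. That at Atp5l had 33.1, 47.1 and 39.9 in cKO-labelled libraries and 62.3, 46.9 and 47.3 in WT libraries, and its change of -0.07 was the only negative one of the 39 with medians subtracted. No region of the 39 was called lower in any of the 4 scalings.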

How the data were processed

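RNA-seq and ATAC-seq were each measured in 3 cKO-labelled and 3 WT libraries, grouped by the labels. Per the submitters' processing notes, HOMER 4.11, Bowtie2 2.3.5.1, RSEM 1.3.3, STAR, edgeR and DESeq2 were used with mm10; their roles and settings are not given in the sources used here. Values of the deposited RNA table are a signal, gene counts that the authors had normalized by a method not stated. Only 0.18% of the values above 0 were within 0.001 of whole, which left raw reads unrecovered and raw depth unknown. The authors also deposited a log2 fold change with its standard error (a score), a p-value and, for 9263 genes, an adjusted p-value. For ATAC-seq the deposited files are HOMER peaks of single libraries. Per the file headers, tag counts are a signal scaled to 10000000 tags, scores are in unscaled tags, a clonal ratio compares observed with expected positions, the Poisson p-value limit was 0.001, and 1 tag per bp was the most counted.

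A mean of at least 10 left 18074 genes, which were tested with limma 3.58.1 (R 4.3.3, eBayes with trend) after adding 1 and taking log2. Adjustment was by Benjamini-Hochberg with a threshold of 0.05. Peaks sharing 1 bp were merged, a region took the tag count of its highest peak in each library, and log2 heights plus 1 were tested likewise once library medians had been subtracted. Promoters came from RefSeq, build GRCm38.p6; 10 genes with no entry there were placed on ATAC regions by both gene ends. Values per library were given for the 3 genes of smallest p and the most abundant gene of each complex, for genes with a positive change, and for a set of paralogs. For ATAC the 5 regions of smallest p were named, with values per library for those at Atp5g1 and Atp5g2 alone. Other genes and regions named, among them the regions at Atp5mpl, Atp5e and Atp5l, were chosen after their values were seen. The genes, comparison lists and tests were chosen with earlier results of these data known. The limma fits were tested on simulated data, and the other steps used Python 3.11.15, pandas 2.3.3, numpy 2.4.6 and matplotlib 3.10.9. Alternatives were other pseudocounts, filters, scalings, variance models and weights, a replicate block, each library left out, other peak heights, thresholds, overlaps and windows, and the adjusted p the authors deposited.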

Additional observations from a re-analysis of the deposited data

How the results depend on the processing

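Of the 42 genes, 34 had a negative change under the main settings and in every alternative run for RNA (16, or 15 for Atp5pb-ps, whose mean is below 50), and 8 turned sign in at least 1. Limma called 37 of all genes, 5 with a pseudocount of 0.1, 6 without a variance trend, 1783 with sample quality weights and 1 to 150 when 1 library was left out (1 without replicate 2 of the WT libraries, 150 without replicate 2 of the cKO-labelled ones), against 526 in the authors' deposited table. Of the 42 it called 0, 1 without a filter (Atp5e), 23 with quality weights, which gave replicate 1 of the cKO-labelled libraries a weight of 7.43, and 0 to 7 with 1 library left out, against 18 in the authors' deposited table. The median change of the 42 was -0.53 to -0.41 with 1 library left out. From the log2 fold changes in the authors' deposited table it was -0.30. Those are on another scale, on which low-count genes could lie nearer 0, as Cox7b2 did at 0.02 against 0.38 by limma. The log2 ratio of their sums, -0.38, was -0.49 without the 3 most abundant genes and -0.41 to -0.36 with 1 library left out. Changes that turned were those of Uqcrc1 (-0.14), Cox8a (0.028) and Cox7b2 (-0.033) with quality weights and of Atp5a1 (0.11) and Atp5b (0.14) after quantile normalization. With 1 library left out, Uqcrc1 ran from -0.11 to 0.13, Uqcrc2 from -0.076 to 0.189, Cox8a from -0.164 to 0.020, Cox5b-ps from -0.059 to 0.986, Atp5a1 from -0.131 to 0.023 and Atp5g2 from -0.066 to 0.591. Further genes moved by over 1.5 times when 1 library was left out, without turning sign in those fits. The value nearest 0 is given here for each. Without replicate 2 of the WT libraries these were Uqcrq (-0.08), Cox6b2 (-0.07) and Atp5g1 (-0.26). Without replicate 1 of them they were Atp5b (-0.08), Atp5j (-0.08) and Cox7b2 (0.06), and without replicate 3 Atp5pb-ps (-0.02). Without replicate 3 of the cKO-labelled libraries it was Cox7a2l (-0.06). Called ATAC regions numbered 11223, against 3488 without subtraction, 2681 after quantile normalization, 3141 after cyclic loess and 2309 among peaks of at least the median score, and 28 regions at subunit genes became 1, 2, 2 and 5 (of 6 left) in the same order. Their median of 0.57 became 0.26, 0.15 and 0.12 under the first 3 of these. The regions at Uqcrh (-0.147 and -0.158), Atp5d (-0.046 and -0.159) and Atp5j (-0.115 and -0.146) turned after quantile normalization and cyclic loess, and that at Atp5d (-0.38) among peaks of at least the median score. The cause of these differences was not tested.

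With the replicate number as a replicate block, limma called 122 genes and 4 of the 42 (Cox6b1, Atp5e, Atp5h and Atp5md). Deviations of same-numbered RNA libraries correlated at 0.12, 0.21 and -0.06 and those of ATAC libraries at -0.03, -0.01 and 0.01, so the numbers were not taken to pair the libraries.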

Other observations

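The 42 genes are short, with a median span of 6.34 kb in the gene table, where all genes tested have 20.06 kb. Of the 42, 18 had a span of up to 5.04 kb and a median log2 change of -0.43, where the 3159 tested genes of such spans had a median of -0.03. A further 18 spanned 5.05 to 14.11 kb, with a median of -0.42, where the 3158 tested genes of such spans had -0.02. Across the 42 genes, which share libraries and depth, the log2 change had a Spearman correlation of 0.12 with span, of 0.23 with span without the 2 pseudogenes, and of -0.13 with mean level. Across all 15786 genes with a span the correlation with span was 0.12. The part of transcript length in these values was not tested, since the gene table gives spans and no transcript lengths.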
